A study of Triticum aestivum with 12 samples.

Results

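The genes described here are 5 wheat genes with the alternative oxidase domain (Pfam family PF01786) that lie outside the cluster of such genes on the group 2 chromosomes. They were chosen by identifier, and they are 5 of 15 genes with this domain among 124118 genes in the count table. TraesCS2A01G541400, TraesCS2B01G571700 and TraesCS2D01G542600 form a homoeologous triad that lies further along 2A, 2B and 2D than the cluster does, and TraesCS6A01G269100 and TraesCS6B01G296400 are a pair on 6A and 6B. One further gene with this domain outside the cluster, TraesCS3B01G087900 on 3B, had 0 counts in the 12 libraries and is not among the 5. A counterpart on 6D was not analysed here. RNA was sequenced from the upper part of untreated, rootless seedlings 2 months after germination, with 3 libraries in each of 4 groups. One group was wild type (WT), and the others were overexpression lines of TaSIP1∆C named C20, C22 and C40, of which the labels also call C40 by the name 40C. The series title places TaSIP1 in mitochondrial retrograde signalling, where its partner TaSRO1 holds it back. The promoter of the transgene and the origin of the lines are not given in the labels, nor is it said that the 3 libraries of a group came from separate plants, so p-values measure the spread between these libraries, which may be technical. The level of the transgene was not checked here.

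Alternative oxidase is an enzyme of the inner mitochondrial membrane that takes electrons from ubiquinol and passes them to oxygen, so that respiration can go on past the cytochrome pathway. In plants, transcripts of some of its genes are a common readout of retrograde signalling, by which a disturbed mitochondrion changes nuclear transcription, while other members of the family are steadily expressed. The same Pfam family also takes in the plastid terminal oxidase, a plastoquinol oxidase of the chloroplast that takes part in carotenoid synthesis and chlororespiration. The deposited tables give only the domain, and which of these enzymes each of the 5 genes encodes is not stated in them. Bread wheat is hexaploid, and most of its genes are present as homoeologs on the A, B and D subgenomes.

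All 5 genes are annotated on the minus strand. The sources used here do not name the genome build of the coordinates. TraesCS2A01G541400 was placed at 752867826 to 752871109 on 2A, TraesCS2B01G571700 at 761981457 to 761991765 on 2B and TraesCS2D01G542600 at 621064121 to 621066597 on 2D. The first and the last of these span 3284 and 2477 bases and have gene lengths, as used for FPKM, of 1008 and 1002 bases. The 2B gene spans 10309 bases with a gene length of 1196 bases. Within that span it overlaps TraesCS2B01G571600, an Exo70 exocyst subunit gene on the plus strand, over 4076 bases. That gene had 0 counts summed over the 12 libraries, so no read was assigned to it. The 3 genes of the triad are followed, 883, 727 and 914 bases further on, by undescribed genes on the same strand (TraesCS2A01G541500, TraesCS2B01G571800 and TraesCS2D01G542700). TraesCS6A01G269100 lies at 495464128 to 495465604 on 6A and TraesCS6B01G296400 at 532150706 to 532152010 on 6B, with spans of 1477 and 1305 bases and gene lengths of 1194 and 1023 bases. Each of these lies between a MYB-CC transcription factor gene and an amino acid permease gene. The sources used here do not give the strand setting of the counting, and reads shared by near-identical homoeologs may have been divided among them.

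The libraries held 25622422 to 43532179 counts. Levels are given as CPM, counts scaled to a common library size by TMM, or, between genes, as the deposited FPKM, which is also per length. Replicates were least alike in C20, where log2 CPM correlated across genes at 0.743 to 0.891. In the other groups this was at least 0.858. Summed core histone transcripts, which mark dividing cells, reached 1302 CPM in WT and at least 5018 CPM in 7 line libraries. C20 replicate 3 (1490.5 CPM) and C40 replicate 1 (1157 CPM) stood apart from those 7. C20 replicate 2 had the highest histone level and the lowest chlorophyll a/b-binding level of the 12, and all 5 alternative oxidase genes had their lowest value there. C20 replicate 3 had the highest value for 4 of them. In bulk tissue, fewer cells of a type and less RNA per cell cannot be told apart.

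In WT the 5 genes were expressed in a clear order per length. TraesCS2D01G542600 was highest at 49.1 ± 5.39 FPKM (SD, n = 3), above 95.7% of the tested genes in the same libraries. TraesCS2A01G541400 followed at 25.1 ± 3.10 FPKM, TraesCS6A01G269100 at 20.3 ± 1.18 FPKM, TraesCS6B01G296400 at 15.1 ± 3.01 FPKM and TraesCS2B01G571700 at 3.44 ± 0.238 FPKM. Neighbours in this order did not overlap across the WT libraries. In C40 the top of the order was the same, with 47.5 ± 15.4 FPKM for the 2D gene and 21.6 ± 6.61 FPKM for the 2A gene. The 6B gene (7.19 ± 1.17 FPKM), the 6A gene (7.10 ± 1.12 FPKM) and the 2B gene (5.13 ± 1.66 FPKM) overlapped there.

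Within the triad the measured levels per length were unequal in every library. A counting bias that is the same in all libraries, such as one from the gene overlap on 2B, cannot be seen by the test below and was not tested. Over the 12 libraries the 2D gene was 2.21-fold above the 2A gene and 11.4-fold above the 2B gene, and the 2A gene was 5.17-fold above the 2B gene, on the log2(FPKM + 0.1) scale. Each of these 3 differences had the same sign in 12 of 12 libraries (adjusted p = 0.000651 for each, exact sign-flip permutation test, two-sided, adjusted over 4 homoeolog comparisons, the raw p of 0.000488 being the smallest this test can give). Within the group 6 pair the 6A gene was higher per length in 6 of 12 libraries, with a mean log2 difference of 0.08 ± 0.25 (SD) and an adjusted p of 0.294 in the same exact permutation test. This test pools WT with the lines and does not describe WT alone. In WT the 6A gene was at least 18.9 FPKM and the 6B gene at most 17.5 FPKM. The 6A gene took a mean of 57.6% of the pair's FPKM in WT, and 50.4%, 48.1% and 49.7% in C20, C22 and C40.

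No triad gene passed the test between the lines and WT, and the line libraries spread widely around WT. The 2D gene, the most abundant of the 5, had 46.3, 46.2 and 56.1 CPM in WT replicates 1, 2 and 3. Its values were 53.8, 12.6 and 77.1 CPM in C20, 47.3, 30.4 and 49.2 CPM in C22 and 67.4, 39.0 and 38.9 CPM in C40. The lines thus lay on both sides of WT, with 4 of 9 line libraries below and 2 above all of WT. In edgeR's quasi-likelihood test with 4 group means, its log2 fold change in the mean of the 3 lines was -0.10 ± 0.41 (SE, 95% interval -1.002 to 0.79), with an adjusted p (Benjamini-Hochberg over 75788 tested genes) of 0.868.

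TraesCS2A01G541400 had 22.1, 25.8 and 28.5 CPM in the WT replicates, 23.4, 7.47 and 28.5 CPM in C20, 20.5, 11.1 and 19.5 CPM in C22, and 30.4, 17.9 and 18.2 CPM in C40. Of the 9 line libraries 6 lay below all of WT and 1 above, and C22 lay below WT in all 3 of its libraries. Separation of that kind was common, since 25% of the tested genes lay below WT in all of C22. The log2 fold change in the mean of the lines was -0.38 ± 0.34 (adjusted p = 0.428).

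TraesCS2B01G571700, the least abundant, had 4.07, 3.89 and 4.49 CPM in WT, from 124 to 148 counts per library. It had 4.82, 1.24 and 8.77 CPM in C20, 4.34, 3.47 and 4.56 CPM in C22 and 8.68, 4.97 and 5.06 CPM in C40. It was the one member whose estimate was above 0, at 0.27 ± 0.42 on the log2 scale (adjusted p = 0.655). All 3 libraries of C40 lay above WT, as they did for 23.3% of the tested genes, and the fitted change there was 0.59 ± 0.51 (adjusted p = 0.430). Without C20 replicate 3 and C40 replicate 1, its change in the mean of the lines was -0.09.

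**Figure D1:**
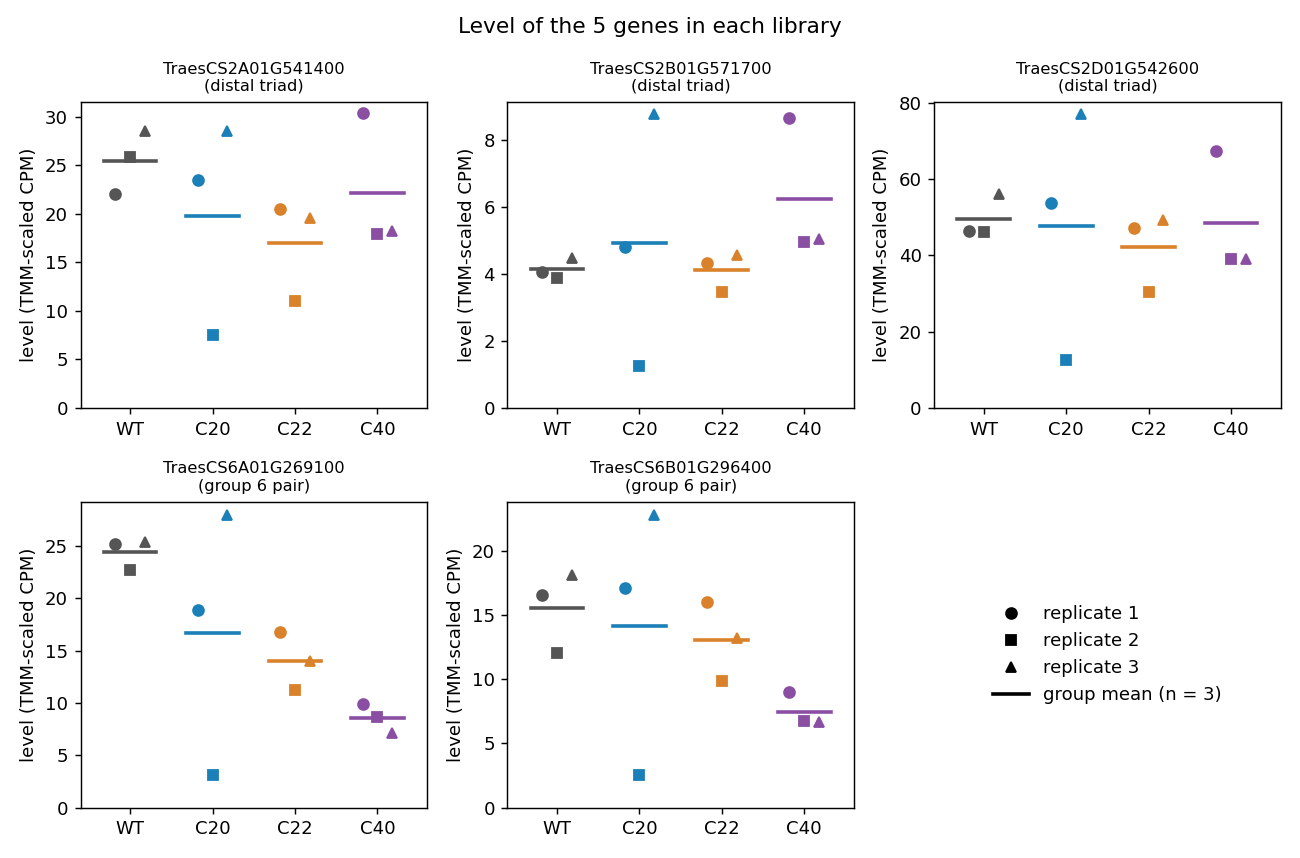
TMM-scaled CPM of each of the 5 genes (vertical axes) in the 3 libraries of WT, C20, C22 and C40 (horizontal axes), with points for libraries, shapes for replicate numbers and bars for group means. C20 replicate 2 is lowest in every panel, and the 6A gene lies at 7.17 to 9.94 CPM in C40 against 22.7 to 25.4 CPM in WT.

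The group 6 pair had lower estimates in the lines, and line C40 was the lowest. TraesCS6A01G269100 had 25.2, 22.7 and 25.4 CPM in the WT replicates. It had 18.9, 3.16 and 28.0 CPM in C20, 16.8, 11.2 and 14.0 CPM in C22 and 9.94, 8.67 and 7.17 CPM in C40. It lay below all of WT in 8 of 9 line libraries, C20 replicate 3 being the exception. Its log2 fold change in the mean of the lines was -0.95 ± 0.42 (95% interval -1.87 to -0.04), which had an unadjusted p of 0.0430 and did not pass after adjustment (adjusted p = 0.115). Without C20 replicate 2 or C20 replicate 3 the gene fell by 0.79 (adjusted p = 0.00815) or by 1.18 (adjusted p = 0.0336) on the log2 scale, and without C20 replicate 3 and C40 replicate 1 together by 1.22 (adjusted p = 0.0307). In that last fit 32263 genes were called in all, against 17592 in the main fit. Fits that left out 1 library called from 4216 to 26498 genes in all. The totals without C20 replicate 2 and without C20 replicate 3 are not given here one by one. The 6A gene went uncalled in the other 10 fits without 1 library (edgeR adjusted p from 0.114 to 0.235) and in 8 of 9 alternative fits.

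TraesCS6B01G296400 had 16.6, 12.03 and 18.1 CPM in the WT replicates, 17.1, 2.57 and 22.8 CPM in C20 and 16.0, 9.85 and 13.2 CPM in C22. In C40 it had 8.99, 6.77 and 6.64 CPM, below all of WT, whereas C20 and C22 overlapped with WT. Its log2 fold change in the mean of the lines was -0.49 ± 0.44 (adjusted p = 0.435). Scaling by library totals, which moved the median of all tested genes to 0.50, gave -0.59 for the 6A gene and -0.11 for the 6B gene. In C40 these became -1.01 and -0.56, and 0 were called.

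Over the 5 genes, 0 were called in the mean of the lines by edgeR and 0 by DESeq2 or by limma on FPKM, against 23.2% of the 75788 tested genes by edgeR. At an unadjusted p of at most 0.05, 1 of the 5 passed in edgeR, the 6A gene. None of the 5 lay wholly below or above WT in all 9 line libraries, as 8.13% and 5.95% of the tested genes did. The median log2 fold change of the 5 was -0.38, beside 0.07 over all tested genes. In simulated data for this comparison edgeR recovered 4% of genes with a 2-fold change and 83% with a 4-fold change. Only 100 genes of each fold were changed in that simulation, so its adjusted threshold was stricter than in the data, where genes with changes under 2-fold were also called. Every simulated gene also had the same spread beyond counting error, unlike genes in the data, so these rates are not the power for the 5 genes.

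Line by line, edgeR called 0 of the 5 in C20, C22 or C40, where 2.46%, 18% and 18.6% of all tested genes were called. At an unadjusted p of at most 0.05, 1 passed, in C40. The largest differences were those of the pair in C40, where the 6A gene was at 8.59 ± 1.39 CPM against 24.4 ± 1.51 CPM in WT (SD, n = 3 each) and the 6B gene at 7.47 ± 1.32 CPM against 15.6 ± 3.16 CPM. Their log2 fold changes were -1.51 ± 0.55 (adjusted p = 0.0754) and -1.06 ± 0.56 (adjusted p = 0.197). Both lay below WT in all 3 libraries of C40, as did 20.5% of the tested genes. C20 libraries enter this contrast through the scaling and the shared estimate of the spread. Without C20 replicate 2 both genes fell in C40 (adjusted p = 0.00108 for 6A and 0.00949 for 6B), and likewise with C40 and WT fitted alone (adjusted p = 0.00207 and 0.0133). Without C20 replicate 3 the 6A gene fell in C40 as well (adjusted p = 0.0398), and DESeq2 called it (adjusted p = 0.0259). In C40 the 6A gene went uncalled in 7 of 10 alternative fits and in 10 of 12 fits without 1 library. The 6B gene went uncalled in 9 and 11 of these. How many of all tested genes these refits called in C40 is not given here. In C20 all 5 genes overlapped with WT (15.9% of tested genes lay wholly below it and 10.5% above). In C22, where 25% lay below and 30.4% above, the 6A gene was below WT in all 3 libraries. There the 6A gene, at 14.0 ± 2.78 CPM, had a log2 fold change of -0.80 ± 0.54 (adjusted p = 0.307), and it fell without C20 replicate 2 (adjusted p = 0.0186) and with C22 and WT fitted alone (adjusted p = 0.00596). It went uncalled in C22 in 9 of 10 alternative fits and in 11 of 12 fits without 1 library. The calls of these refits over all tested genes in C22 are also not given here.

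**Figure D2:**
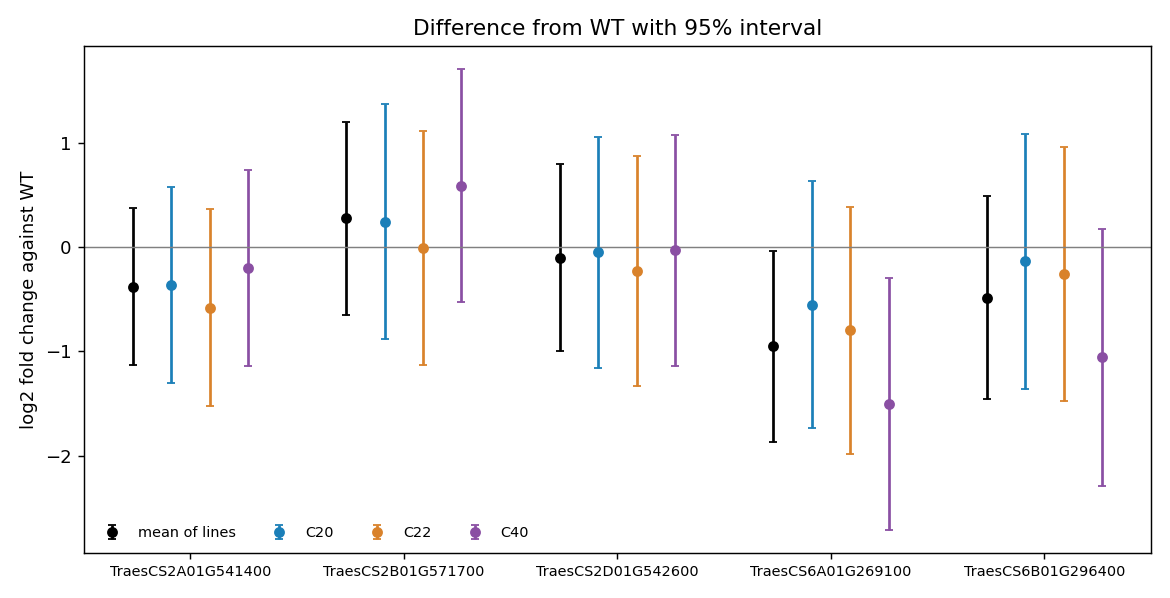
Log2 fold change against WT (vertical axis) of the 5 genes (horizontal axis) in the mean of the lines and in C20, C22 and C40, as points with 95% intervals from the edgeR fit. The triad intervals include 0 throughout, and the interval of the 6A gene in C40 runs from -2.71 to -0.30 before adjustment over all genes.

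Between lines, the F test for any difference passed for 0 of the 5 genes. It gave adjusted p from 0.580 to 0.972 and called 2.49% of all tested genes (0 of the 5 at an unadjusted p of at most 0.05). Of the 15 pairwise contrasts (3 pairs of lines and 5 genes) 0 passed in edgeR, 0 were at an unadjusted p of at most 0.05, and DESeq2 and limma on FPKM also called 0. Over all tested genes edgeR called 1.07% between C22 and C20, 1.66% between C40 and C20 and 0.425% between C40 and C22. The intervals were wide. The 6A gene in C40 against C20 had a log2 difference of -0.95 (95% interval -2.15 to 0.24), and against C22 of -0.70 (-1.89 to 0.48). Without C20 replicate 2 the F test passed for the 6A gene (adjusted p = 0.0122) and the 6B gene (adjusted p = 0.0210), and both were lower in C40 than in C20 (adjusted p = 0.0105 and 0.0181) but not called between C40 and C22 (adjusted p = 0.118 and 0.115). For both genes the F test did not pass in the 11 fits that left out another library. The share of 2.49% is from the main fit. How many of all tested genes the fit without C20 replicate 2 called between lines is not given here, so its calls cannot be set against the whole table.

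Within a library, the ratio of triad to pair counts does not depend on how libraries are scaled. It was 1.73, 2.19 and 2.05 in WT, 2.28, 3.72 and 2.25 in C20 and 2.20, 2.13 and 2.70 in C22. In C40 it was 5.62, 4.01 and 4.50, higher than in each of the other 9 libraries. C20 replicate 2, the library with the fewest counts of the pair (194), came closest. This ratio was formed after the values were seen and is given without a test.

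**Figure D3:**
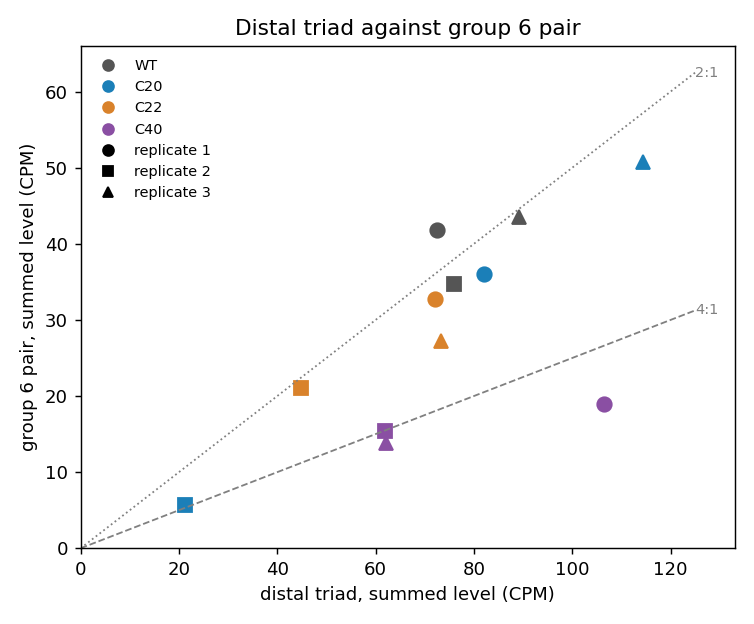
Summed CPM of the distal triad (horizontal axis) against summed CPM of the group 6 pair (vertical axis), with one point per library and grey guide lines of constant ratio. The 3 libraries of C40 lie at 13.8 to 18.9 CPM of the pair with 61.9 to 106 CPM of the triad, under the other line and WT libraries except C20 replicate 2.

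The share of each homoeolog in the counts of its own triad or pair also does not depend on library scaling. The lines and WT separated in the shares of the 6A and 2B genes and overlapped in those of the 2A and 2D genes. The 6A gene took 60.3%, 65.3% and 58.4% of the pair's counts in WT. It took 52.4%, 55.2% and 55.1% in C20, 51.2%, 53.3% and 51.4% in C22, and 52.5%, 56.1% and 51.9% in C40. All 9 line libraries lay below all of WT, at 53.2% ± 1.80 (SD, n = 9) against 61.3% ± 3.602 (n = 3), and the exact permutation test over libraries gave p = 0.00909, the smallest it can give with 3 against 9, and an adjusted p of 0.0152 over 5 shares (two-sided). The exact (Clopper-Pearson) 95% interval of single libraries was widest in C20 replicate 2, from 47.9% to 62.3%. C20 replicate 3 and C40 replicate 1, the line libraries lowest in histone transcripts, were on the same side as the other line libraries. In chlorophyll a/b-binding transcripts C20 replicate 3 was at 127349 CPM and C40 replicate 1 at 57380.5 CPM, with WT at 81912 to 123261 CPM. The part of tissue make-up in this share was not tested.

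In the triad the share of the 2B gene was higher in the lines. It was 5.62%, 5.12% and 5.04% in WT, 5.87%, 5.83% and 7.67% in C20, 6.02%, 7.74% and 6.23% in C22 and 8.16%, 8.04% and 8.14% in C40. The 9 line libraries lay above all of WT, at 7.08% ± 1.05 against 5.26% ± 0.311 (exact permutation p = 0.00909, adjusted p = 0.0152, two-sided). The lowest line libraries were close to the highest of WT, and the interval of C20 replicate 2 (4.23% to 7.79%, from 42 counts) included every WT value. The 2A gene had 28.3% ± 3.07 in the lines and 32.2% ± 1.77 in WT, lower in 8 of 9 line libraries (adjusted p = 0.102, exact permutation test), and without C20 replicate 2 this difference passed (adjusted p = 0.0152). The 2D gene had 64.6% ± 2.84 and 62.6% ± 1.56 (adjusted p = 0.318, exact permutation test).

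These tests treat the 9 line libraries as exchangeable although they come from 3 lines, and each line alone against WT, 3 against 3, cannot give a p below 0.10. Without any one WT library the adjusted p of the 6A and 2B shares was 0.0606, with the groups still apart and the raw p at the smallest that 2 against 9 libraries can give. How often other homoeologs in the table separate in this way was not computed. For the genes next to the members, the 2B gene among the 3 that follow the triad had 18.1% ± 2.72 of their counts in the lines and 15.1% ± 2.81 in WT, with overlapping libraries. The 6A gene among the amino acid permease genes that follow the pair had 50.1% ± 4.24 in the lines and 47.7% ± 7.33 in WT, and among the MYB-CC genes that precede it 54.6% ± 5.61 and 49.6% ± 8.57, also overlapping. Summed over the 12 libraries, the MYB-CC genes had 591 and 549 counts and the following 2B gene 639, against 5913 and 4658 for the pair. Counting error in these neighbour shares is thus larger, and their overlap does not set the members apart.

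**Figure D4:**
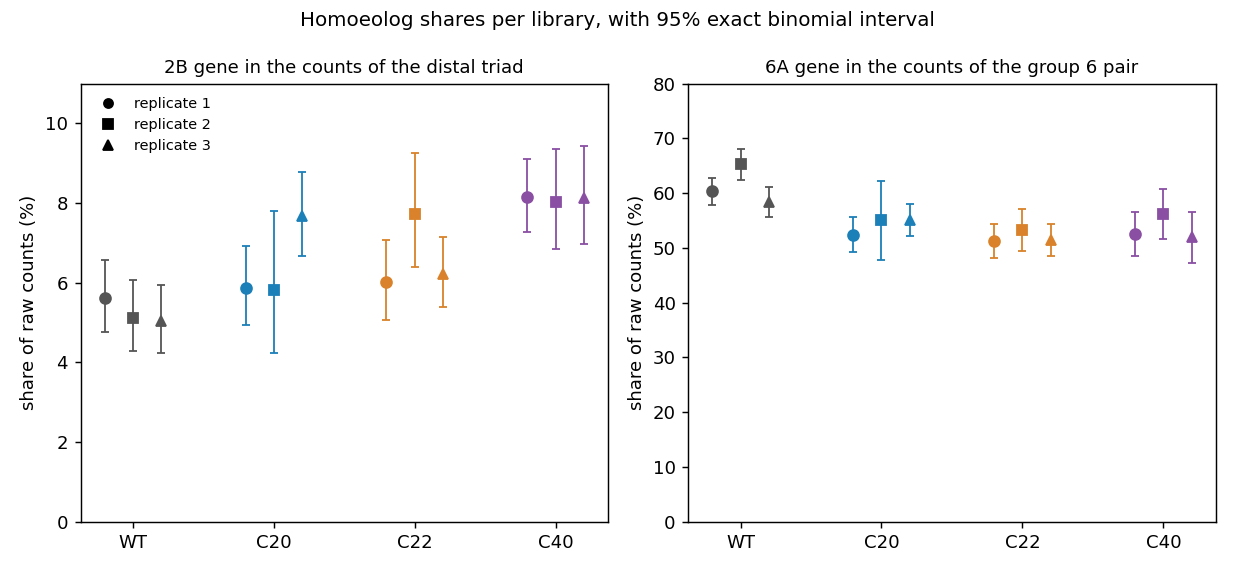
Share of raw counts (vertical axes, %) of the 2B gene in the distal triad and of the 6A gene in the group 6 pair, per library in WT, C20, C22 and C40, with exact binomial 95% intervals for counting error. All 9 line libraries lie above WT for the 2B share and below WT for the 6A share.

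The other 10 genes with this domain are the cluster on the group 2 chromosomes and the gene on 3B at 0 counts. Set against these, the 5 genes held most of the counts with this domain in WT and a smaller share in the lines. Which of these counts are of mitochondrial alternative oxidases and which of a plastid terminal oxidase was not settled. They took 85.3%, 82.9% and 82.5% of all counts with this domain in WT. The share was 38.4%, 39.9% and 34.6% in C20, 50.8%, 56.8% and 56.4% in C22 and 52.3%, 38.3% and 35.3% in C40. The groups did not overlap (44.7% ± 9.17 against 83.6% ± 1.49, exact permutation p = 0.00909, adjusted p = 0.0152, two-sided), and this comparison was chosen with the rise of the cluster known. Its denominator includes the cluster, so a lower share was known beforehand and the p-value is no evidence about the 5 genes themselves. This share is also 1 of the 5 over which the homoeolog shares were adjusted, which bears on their adjusted p. Summed over the 5 genes the level ran from 111 to 133 CPM in WT and from 27.0 to 165 CPM across lines. The other 10 genes of the family summed to between 19.7 and 28.1 CPM in WT and between 40.7 and 313 CPM across lines. Of those 10, 8 were tested and 7 rose in the mean of the lines, with a median log2 fold change of 2.34 over the 8.

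The 5 genes varied with one another across libraries. Pearson's r of log2 CPM over the 12 libraries was 0.963 between the 6A and 6B genes, 0.838 to 0.948 within the triad and 0.558 to 0.845 between a triad gene and a pair gene. The libraries also differed in summed transcripts that mark green and dividing tissue, and the 5 genes correlated with both, the 2B gene least. The summed level of 117 detected chlorophyll a/b-binding genes, which mark green mesophyll, ranged over 81912 to 123261 CPM in WT and over 24850 to 127349 CPM in line libraries. It correlated with the 6A gene at r = 0.911 and with the 6B gene at 0.857, and with the 2A, 2D and 2B genes at 0.804, 0.753 and 0.516. With the 18 Rubisco small subunit genes (at 45856 to 63605 CPM in WT and from 9607 up to 48281 CPM in the lines) r was 0.916 for 6A and 0.407 to 0.823 for the other members. With core histones (320 detected genes, 1145 to 1302 CPM in WT, up to 12601 CPM among line libraries) r was -0.80 for 2A, -0.71 for 6A and between -0.54 and -0.68 for the rest. With MADS-box genes with a K-box, which mark the reproductive apex (100 detected genes, 291 to 353 CPM in WT, 278 to 578 CPM among line libraries), r ran from -0.24 to 0.443. The points of these correlations share libraries and scaling, and the part of these marker levels in the differences between lines and WT was not tested.

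**Figure D5:**
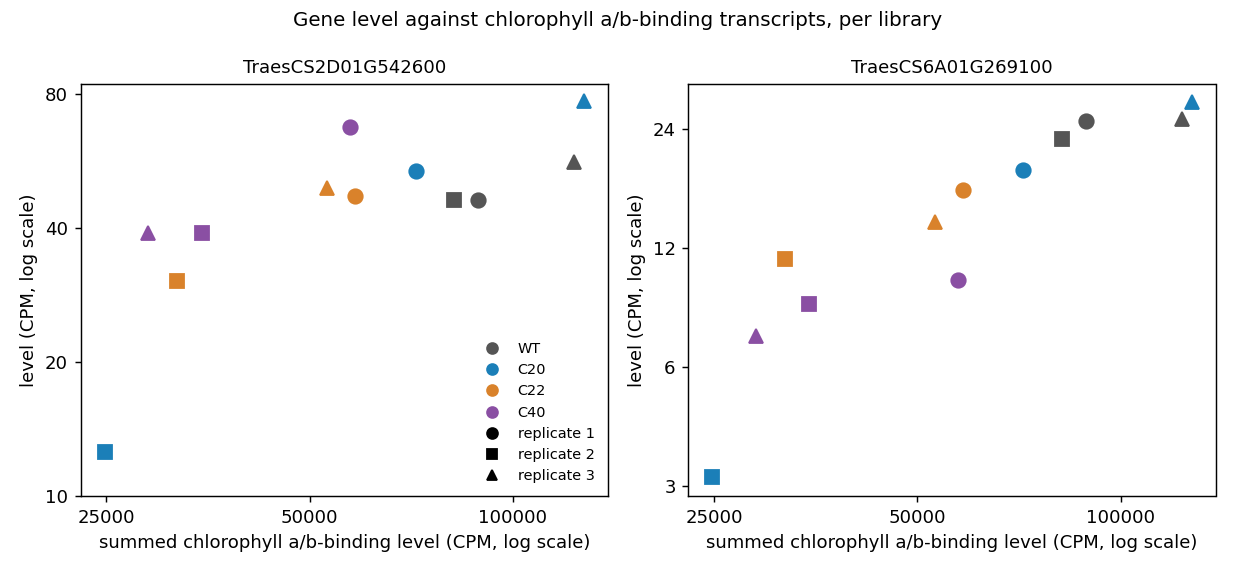
CPM of TraesCS2D01G542600 and TraesCS6A01G269100 (vertical axes, log scale) against the summed CPM of chlorophyll a/b-binding genes (horizontal axes, log scale), with one point per library. The 6A gene follows that level closely (r = 0.911) and the 2D gene less so (r = 0.753).

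Among 39678 other described genes with a mean of at least 1 CPM, those with the most similar profile over the 12 libraries were found for each member. For the 6A gene they were TraesCS3B01G392800, which encodes a Psb28 protein of photosystem II assembly (r = 0.997), the alpha/beta hydrolase gene TraesCS6A01G272700 (r = 0.987) and the thioredoxin gene TraesCS3A01G418400 (r = 0.987). For the 6B gene they were TraesCS4D01G104200 (DnaJ domain), TraesCS3A01G063700 (protein kinase with a thaumatin domain) and TraesCS2B01G608900 (Mpv17/PMP22 family), each at r = 0.984. The 2A gene was closest to TraesCS3B01G256600, an NLI-interacting-factor-like phosphatase gene (r = 0.980), followed by the kinase genes TraesCS5B01G370400 (0.974) and TraesCS5A01G492000 (0.972). The 2D gene was closest to TraesCS3D01G155800 (DUF2358, r = 0.980), TraesCS3D01G440600 (glycosyl hydrolase family 1, r = 0.980) and the NB-ARC gene TraesCS6B01G464400 (r = 0.978). The 2B gene was closest to the protein kinase genes TraesCS6D01G003900 (r = 0.974) and TraesCS1D01G317400 (r = 0.972) and the POT family transporter gene TraesCS1A01G150400 (r = 0.972). The highest of so many correlations over 12 libraries is large by selection.

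Genes related to these oxidases by pathway were counted in lists defined by Pfam family, against 23.2% of all tested genes called in the mean of the lines, 11.5% higher and 11.7% lower. The family with the fold of type II NAD(P)H dehydrogenases, which feed electrons to ubiquinone and which shares that fold with many other reductases, had 61 tested genes, of which 3 rose and 16 fell (median log2 fold change -0.33, beside 0.07 over all genes). Its lowest p were those of TraesCS3B01G299800, a glutamate synthase gene of nitrogen assimilation, from 46.0 ± 4.06 to 24.2 ± 6.48 CPM, and TraesCS7A01G448800, from 84.7 ± 5.53 to 40.5 ± 8.998 CPM. Of 143 mitochondrial carrier genes, the family that includes uncoupling proteins, 2 rose and 21 fell (median -0.18), among them TraesCS1D01G195400, from 92.2 ± 15.2 to 26.5 ± 16.8 CPM. Of 67 genes with domains of complexes I, III and IV or of cytochrome c, 3 rose and 1 fell (median -0.06). The one with the lowest p, TraesCS7A01G137000, carries a Rieske domain with that of pheophorbide a oxygenase, an enzyme of chlorophyll breakdown, and rose by 2.94 ± 0.47 on the log2 scale. Of 87 genes with domains of carotenoid synthesis enzymes 9 rose and 24 fell (median 0.04). TraesCS2A01G046100 and TraesCS2B01G058200, which had the lowest p, join a flavin amine oxidoreductase domain to a cyclopropane synthetase domain, so they need not act in carotenoid synthesis, and they fell by 1.42 and 1.53 on the log2 scale. Of 206 NAC transcription factor genes, a family whose members control alternative oxidase genes in Arabidopsis, 30 rose and 20 fell (median 0.17), for example TraesCS5B01G141900, from 0.864 ± 0.156 to 4.25 ± 1.52 CPM.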

How the data were processed

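Seedling shoot RNA of 12 libraries was analysed. The deposited tables hold raw counts, for which the submitters' processing notes name featureCounts 1.5.0-p3, and FPKM. The aligner, build and annotation were not given in the sources used here. The deposited FPKM equalled count per length with a scale of its own for each library, 0.797 to 1.35 times that of the plain library total. Genes passing filterByExpr (75788, all 5 members included) were scaled by TMM and fitted in R 4.3.3 with edgeR 4.0.16 (4 group means, quasi-likelihood), and called at an adjusted p of at most 0.05. SE was taken from the F statistic as |log2 fold change| / √F. Shares and levels were tested by exact permutation in SciPy 1.17.1. Counting intervals cover counting error only. The methods were tested on simulated data. No replicates agreed within sampling noise (chi-square per gene 7.19 to 182). Members and lists were chosen with earlier results of these data known. The genes named are the members, the 3 most similar described genes for each, their neighbours, and up to 2 per list by lowest p. Alternatives used RLE, library totals, DESeq2 1.42.0, limma 3.58.1 on log2(FPKM + 0.1) or + 1, other filters, a replicate block, single lines with WT, and left-out libraries.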

Additional observations from a re-analysis of the deposited data

How the results depend on the processing

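With library totals in place of TMM, added after seeing the data, the median log2 fold change over all genes moved from 0.07 to 0.50 and the calls from 8691 higher and 8901 lower to 18005 and 4230. TraesCS2D01G542600 was then at 0.27 in the mean of the lines and at 0.082, 0.26 and 0.46 in C20, C22 and C40, TraesCS2A01G541400 at 0.29 in C40, TraesCS2B01G571700 at 0.49 in C22 and TraesCS6B01G296400 at 0.24 in C22, each with its sign turned and not called. Other reversals were of uncalled values: TraesCS2B01G571700 in C20 with limma (-0.11, and -0.016 with a pseudocount of 1) and in C22 with the filter of 1 CPM in 3 libraries (0.013), and TraesCS2D01G542600 in C20 fitted with WT alone (0.0089). Without C20 replicate 3 and C40 replicate 1 together, TraesCS2B01G571700 was at -0.093 in the mean of the lines and -0.48 in C20, TraesCS6A01G269100 fell by 1.22, 1 member was called in the mean of the lines and 1 in C40, and 32263 genes in all. In C40, 1 member was called with DESeq2 and 2 with C40 and WT fitted alone, and 1 in C22 with WT alone. The share of all tested genes that these fits called in C40 or C22 is not given here.

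Leaving out single libraries gave 4216 to 26498 called genes in place of 17592. Those totals are for the mean of the lines. Members called ranged from 0 to 1 in the mean of the lines and in C22 and from 0 to 2 in C40 and between lines. The calls of these fits over all genes in single lines or between lines are not given here. The log2 fold change in the mean of the lines ranged from -0.31 to 0.045 for TraesCS2D01G542600 and from -1.18 to -0.79 for TraesCS6A01G269100. Ranges that crossed 0 were, in C20, -0.74 to 0.026 for TraesCS2A01G541400, -0.48 to 0.71 for TraesCS2B01G571700, -0.60 to 0.40 for TraesCS2D01G542600 and -0.69 to 0.36 for TraesCS6B01G296400, in C22 -0.089 to 0.10 for TraesCS2B01G571700, and in C40 -0.35 to 0.10 for TraesCS2D01G542600. The difference of lines and WT in percentage points ranged from -9.58 to -6.09 for the 6A share, 1.68 to 1.99 for the 2B share, -4.67 to -2.89 for the 2A share and -40.3 to -37.5 for the share outside the cluster. Libraries with the same replicate number were not treated as paired: deviations from group means correlated at over 0.1 in 8 of 18 such pairs (range -0.51 to 0.461), although all 6 pairs of replicate 2 were positive (0.091 to 0.461). With the replicate block 16014 genes and no member were called, TraesCS6A01G269100 being at -1.02 in the mean of the lines (adjusted p = 0.0958), and the block changed no call of a member. Where the text gives no value, the cause of a change was not tested. Depth limits the 2B gene most, with 42 counts in C20 replicate 2.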
